A study of Homo sapiens with 4 samples.

Results

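To explore which genes responded to acute vemurafenib treatment, A375 melanoma cells treated with 2 µM vemurafenib for 48 h (A375+VEM) were compared with A375 cells kept in 1‰ DMSO, the solvent, for 48 h (A375+DMSO). A gene was compared when its TPM reached 1 or more in either library, which 1784 of the 2864 genes in the deposited table did. TPM, the usual transcript abundance unit, corrects the reads of a gene for its length and sets each library to the same total, so levels of different genes can be set side by side. Other libraries of the series were untreated parental A375 cells (A375P) and A375R, a line kept continuously in vemurafenib at a gradient of concentrations until resistant. Each of the 4 libraries was total RNA from 1 culture condition of the wild-type A375 line, a human melanoma cell line, grown in Dulbecco's modified Eagle medium with 10% fetal bovine serum. There was 1 library per condition and 1 cell line, so no difference below has a replicate check. Intervals are exact 95% intervals on the reads of the libraries, cover counting error only, and compare libraries rather than conditions. Pairs of values without library names give A375+DMSO first and A375+VEM second. In bulk RNA, fewer cells of a kind and less RNA per cell cannot be told apart.

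A375 cells carry an activating mutation of BRAF, a kinase that relays growth signals through MEK and ERK in the MAPK pathway. Vemurafenib inhibits the mutant kinase. In melanoma cells that depend on this pathway, the inhibitor is known for stopping cell division, for shifting the balance of BCL2-family proteins and for altering pigment cell genes.

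The table held the alphabetical start of the gene list, up to symbols beginning with CAC, and these genes took 8.48% to 8.94% of each library's TPM. Reads assigned to them, which are only a portion of the sequencing depth, came to 1932550 in A375+VEM against 1891215 in A375+DMSO, 2054277 in A375P and 1963230 in A375R. Of 7 pigment cell markers in the table (ABCB5, ACP5, APOE, BCAN, BCL2A1, BEST1 and BIRC7), 6 reached the TPM threshold, and the 7 together had a summed TPM of 68.1 in A375+DMSO and 91.2 in A375+VEM. ABCB5 did not, with 1 read in A375+DMSO and 6 in A375+VEM. Markers of immune cells were near absent, with a summed TPM over 12 genes of 1.36 in A375+DMSO and 3.20 in A375+VEM. Of 10 fibroblast, muscle and endothelial markers 5 were compared, and the 10 summed to 106.7 in A375+DMSO and 94.9 in A375+VEM.

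A gene was called higher or lower when the ratio of (TPM + 0.1) passed 1.5-fold. By this rule 825 of the 1784 genes (46.2%) differed between A375+VEM and A375+DMSO, 473 of them higher in A375+VEM (26.5% of all genes compared) and 352 lower (19.7%). The gene list counts below are to be read beside these shares. The log2 ratio had its median at 0.11, its 5th percentile at -1.82 and its 95th percentile at 1.90. Dividing all ratios by the median would lower each log2 value by 0.11, so that list medians between 0 and 0.11 change sign. The far ends leaned downward. Past 4-fold there were 80 genes higher and 71 lower, but past 16-fold only 5 higher and 14 lower. Among the genes compared, 1594 reached a TPM of 1 in both libraries, while 114 did so only in A375+VEM and 76 only in A375+DMSO. Members of these last groups were compared because of the library in which they were high, and 105 of the 114 and 69 of the 76 were called. The genes nearest the threshold were ALDH1A1, just inside at a TPM of 1.00, and C22orf15, just outside at 0.999.

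**Figure D1:**
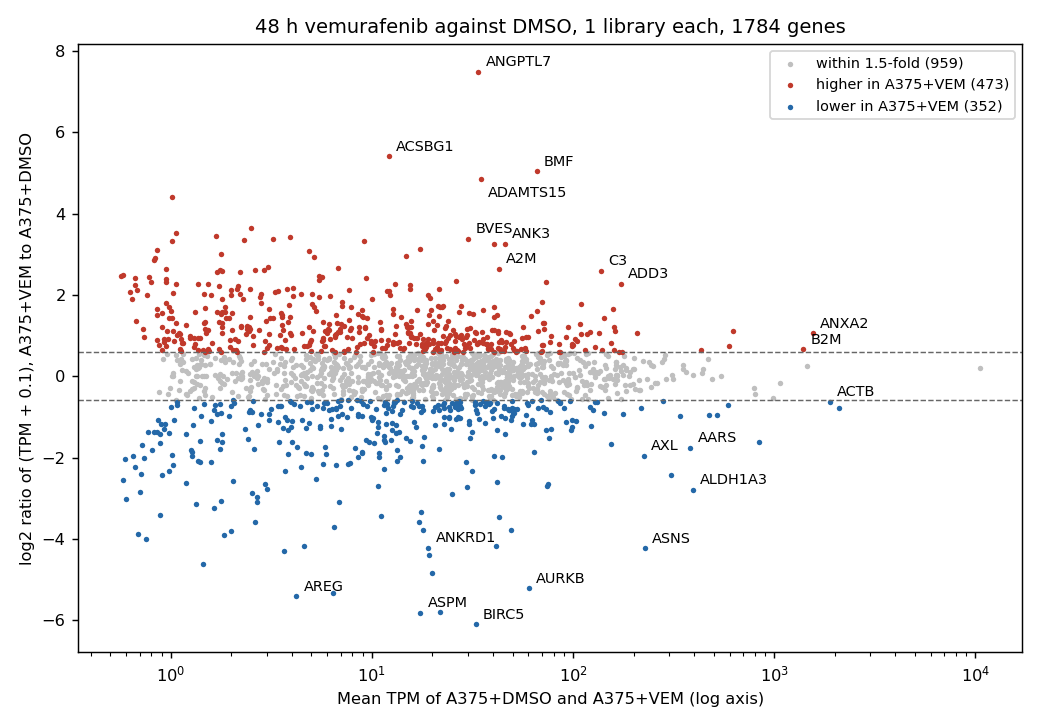
Log2 ratio of (TPM + 0.1) in A375+VEM to A375+DMSO (y axis) against the mean TPM of both libraries (x axis, log scale) for 1784 genes, 1 library each; dashed lines mark 1.5-fold. The 473 higher genes (red) and 352 lower genes (blue) were found at every level, with ANGPTL7 and BIRC5 at the ends.

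The 2 libraries without vemurafenib also differed from each other. Between A375+DMSO and A375P, 786 of 1720 genes (45.7%) were past 1.5-fold, about the share found between A375+VEM and A375+DMSO. For this reason the level in A375P is given beside the main results, although both ratios share the A375+VEM library. Set against A375P, A375+VEM was higher in 657 of 1782 genes (36.9%) and lower in 450 (25.3%). A stricter count takes only genes in which 1 library was past 1.5-fold from all 3 others. Of 1817 genes with a TPM of 1 in any library, A375+VEM stood above the other 3 libraries in 345 (19.0%) and below them in 244 (13.4%). A375+DMSO stood above in 36 and below in 35, A375R in 67 and 47, and A375P in 144 and 292.

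**Figure D2:**
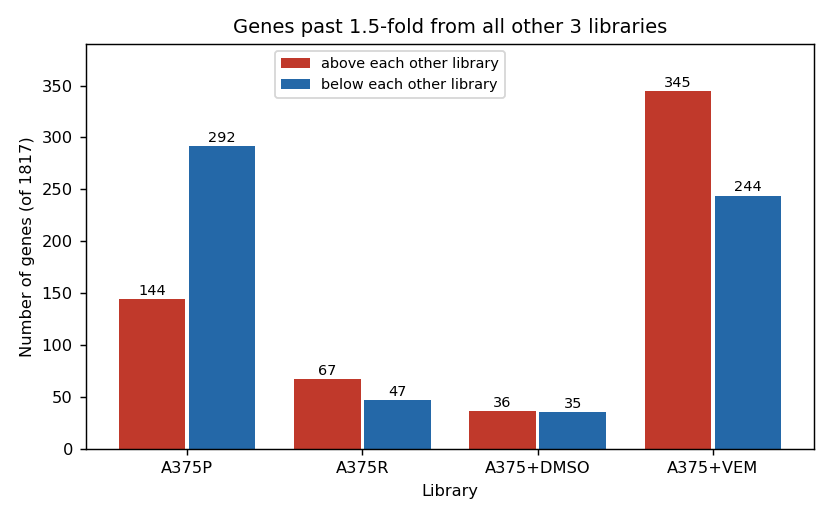
Number of genes (y axis, of 1817) in which a library (x axis) was more than 1.5-fold above (red) or below (blue) each of the other 3 libraries, 1 library per condition. A375+VEM stood apart in more genes than any other library, 345 above and 244 below, and A375+DMSO in fewest.

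Genes of mitosis and cytokinesis were lower in A375+VEM as a group. Of 14 genes compared, 12 were lower and none was higher, with a median log2 ratio of -3.63 against 0.11 over all genes, and 11 of them stood below all 3 other libraries. Against A375P 12 of the 14 were also lower, with a median of -3.11. BIRC5 encodes survivin, a subunit of the chromosomal passenger complex (chromosome 17, 76210277 to 76221716, hg19, plus strand). BIRC5 had a TPM of 0.840 in A375+VEM against 64.7 in A375+DMSO, 54.1 in A375P and 47.9 in A375R, which was 77.1-fold lower than A375+DMSO (48.6 to 131). AURKB, the kinase of the same complex, stood at 3.07 in A375+VEM against 117 in A375+DMSO, 66.9 in A375P and 109 in A375R, 38.3-fold lower than A375+DMSO (27.6 to 54.6). For both genes only A375+VEM was low, and the other 3 libraries lay within 2-fold of each other.

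The spindle checkpoint kinases BUB1B and BUB1 were also low in A375+VEM alone. BUB1B had a TPM of 0.673 in A375+VEM against 42.9 in A375+DMSO, 35.7 in A375P and 43.9 in A375R, a difference of 63.7-fold (41.1 to 105). BUB1 was at 1.25 in A375+VEM against 38.7 in A375+DMSO, 23.9 in A375P and 37.3 in A375R, 31.1-fold lower (22.3 to 44.6). BUB3, their binding partner, was at 116.4 in A375+DMSO and 78.7 in A375+VEM and was within the threshold at 1.48-fold (1.39 to 1.57). Scaled to a median ratio of 1, BUB3 too passed the threshold as lower. ASPM, a spindle pole protein, was 67.5-fold lower than in A375+DMSO (50.2 to 93.1). In ASPM the libraries without vemurafenib differed too, with a TPM of 7.54 in A375P and 34.4 in A375+DMSO. AURKA, the spindle pole kinase, was at 91.3 in A375+DMSO and 6.52 in A375+VEM, 14-fold lower (11.8 to 16.8), and ANLN, a scaffold of the contractile ring, was at 78.4 and 6.97. ARHGAP11A was 14.3-fold lower, while reads of its near-identical copy ARHGAP11B, 9.03-fold lower, cannot be assigned with certainty. AURKC, the germ-line relative, was near the threshold of detection at 1.15 and 1.06. Of the 10 subunits of the anaphase-promoting complex, the ubiquitin ligase that ends mitosis, only ANAPC2 was higher and ANAPC1 and ANAPC10 were lower, with a median of -0.27. Against A375P 2 were higher and 6 lower, with a median of -0.72, so that the number called depended on the control.

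Genes of DNA replication and repair were split. Of 24 compared, 12 were lower, 2 higher and 10 within the threshold, with a median of -0.74 (-0.66 against A375P), and 11 stood below all other libraries. The lower group held the helicase gene BLM, at a TPM of 7.04 in A375+DMSO and 0.261 in A375+VEM, a difference of 27.0-fold (14.5 to 57.0). It also held BRCA2, 21.5-fold lower (13 to 38), BRCA1, 6.73-fold lower (5.70 to 7.98), and its partner BARD1, 10.1-fold lower (6.45 to 16.7). Of the libraries compared, BLM, BRCA2 and BARD1 reached a TPM of 1 only in A375+DMSO, so the filter fixed their direction. ASF1B, a histone chaperone of dividing cells, was at 4.22 in A375+VEM against 78.4 in A375+DMSO, 41.3 in A375P and 66.1 in A375R, 18.6-fold lower than A375+DMSO (14.3 to 24.6). Its paralog ASF1A went the other way, at 20.9 in A375+DMSO and 36.4 in A375+VEM, though A375P was at 36.6. The damage-signalling kinase genes were close to level. ATM was at 17.5 and 16.7, and ATR at 13 and 13. APEX1, a base excision repair nuclease, was at 189.7 and 190.6.

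Promoters of the cell division genes are shown because cell-cycle genes are known to carry the CHR element (cell cycle genes homology region), through which the DREAM complex acts. RefSeq promoters on GRCh38.p14, covering 250 bases before to 50 after the start, were matched by gene identifier to 1840 of the 2864 genes, 1323 of them compared. The letters searched on both strands were TTTGAA or TTCGAA for CHR, TTTCCCGC or TTTGGCGC for E2F, and CCAAT. No letters of 1 motif contain those of another. CHR letters were found in 6 of 10 mitosis promoters (60%) and 4 of 20 replication promoters (20%), against 14% of the 1840 and 16.6% of 27305 reference promoters. CCAAT was in 6 of 10 and 11 of 20, against 34.4% of the 1840. E2F letters were in 1 of 10 and 1 of 20, against 2.17%. The letters and the falls did not always go together. ATM, which was not called, held TTTGAA at -20, and AURKB, which was lower, held no CHR letters. A match describes the letters and is neither a tested site nor a cause. Stretches from 150 bases before to 50 after the start follow for 4 genes that were lower in A375+VEM, 5′ to 3′ on the gene's strand with the CHR letters in capitals.
BUB1B: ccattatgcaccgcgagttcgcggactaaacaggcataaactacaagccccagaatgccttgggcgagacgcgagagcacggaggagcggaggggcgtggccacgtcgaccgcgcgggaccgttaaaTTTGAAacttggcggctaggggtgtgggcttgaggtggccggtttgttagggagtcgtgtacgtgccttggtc
BUB1: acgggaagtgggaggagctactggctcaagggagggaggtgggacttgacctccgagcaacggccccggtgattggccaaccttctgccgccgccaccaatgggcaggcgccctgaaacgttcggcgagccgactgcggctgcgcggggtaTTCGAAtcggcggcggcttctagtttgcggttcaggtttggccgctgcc
ASPM: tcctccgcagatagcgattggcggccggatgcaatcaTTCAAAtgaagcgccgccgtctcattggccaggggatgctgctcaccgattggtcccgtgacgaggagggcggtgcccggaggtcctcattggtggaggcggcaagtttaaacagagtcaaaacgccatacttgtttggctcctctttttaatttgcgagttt
ASF1B: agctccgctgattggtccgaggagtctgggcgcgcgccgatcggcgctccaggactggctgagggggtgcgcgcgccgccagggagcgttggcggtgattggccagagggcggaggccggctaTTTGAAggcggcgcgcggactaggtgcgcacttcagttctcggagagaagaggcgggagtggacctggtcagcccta
The stretches lie at chr15:40160919-40161118 on the plus strand for BUB1B and at chr2:110678014-110678213, chr1:197146620-197146819 and chr19:14136540-14136739 on the minus strand for BUB1, ASPM and ASF1B. Counted from the start, the first CHR letter is at -23 in BUB1B, 2 in BUB1, -113 in ASPM (on the reverse strand) and -27 in ASF1B.

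**Figure D3:**
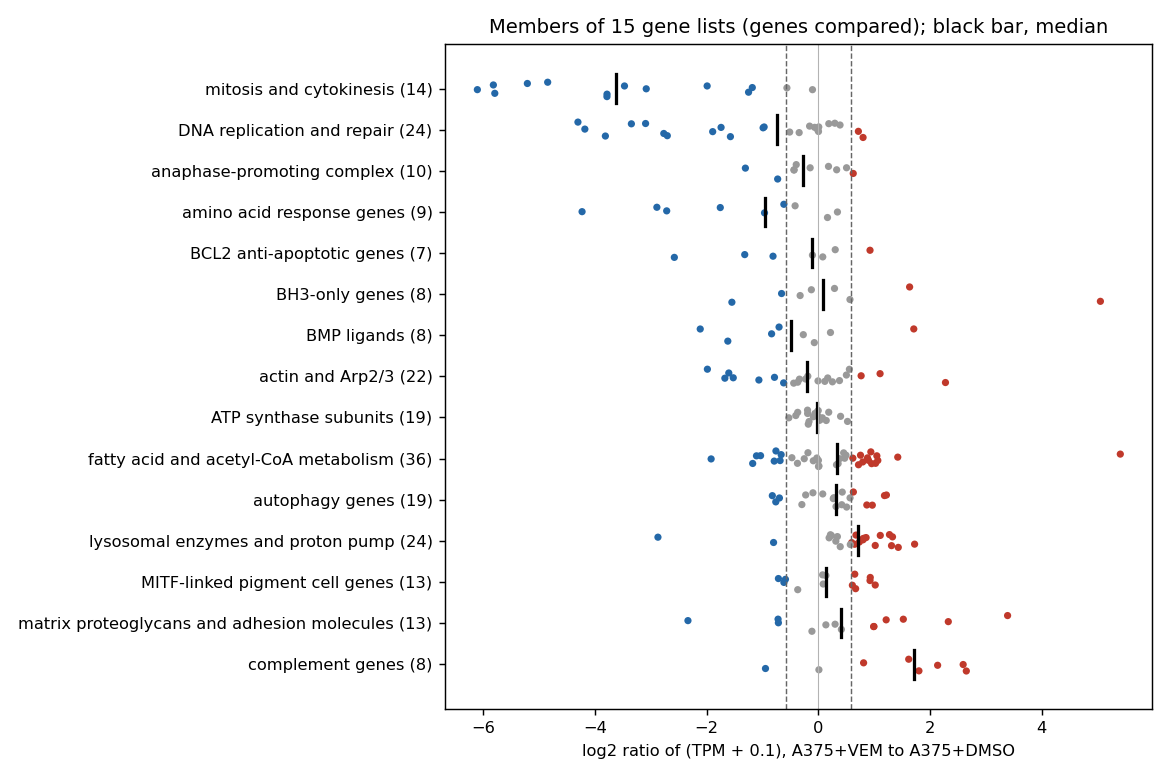
Log2 ratio of (TPM + 0.1) in A375+VEM to A375+DMSO (x axis) for the members of 15 gene lists (rows, number compared in brackets), 1 library each; each point is a gene, black bars are list medians and dashed lines mark 1.5-fold. Mitosis genes lay lowest with a median of -3.63, ATP synthase genes lay within the lines, and lysosomal and complement genes lay mostly above 0.

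Amino acid response genes were the other group with large differences downward. These genes answer ATF4, a transcription factor translated when amino acids run short. Of 9 compared, 6 were lower and none higher, with a median of -0.97 (-1.35 against A375P), and 5 stood below all other libraries. ASNS, asparagine synthetase (chromosome 7, 97481429 to 97501854, hg19, minus strand), had a TPM of 22.8 in A375+VEM against 431 in A375+DMSO, 269 in A375P and 391 in A375R, 18.9-fold lower than A375+DMSO (17.2 to 20.8). ALDH1L2, a mitochondrial folate enzyme, was 7.54-fold lower (6.74 to 8.45), and BCAT1, a branched-chain aminotransferase, 6.65-fold lower (6.11 to 7.24). AARS, alanyl-tRNA synthetase, was at 592 in A375+DMSO and 175 in A375+VEM. In each of these genes the 3 other libraries lay within 2-fold of each other and A375+VEM alone was low. ATF4 itself was at 322 in A375+VEM against 628 in A375+DMSO, 819 in A375P and 603 in A375R, 1.95-fold lower (1.89 to 2.02). ALDH18A1, a proline synthesis enzyme, was at 98.7 and 125, and ATF3, a stress-induced factor, at 42.5 and 47.6. Neither of these was called.

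The CARE letters, TGATGNAA, at which ATF4 and its partners are known to bind, were searched in the same promoters on both strands. This motif was chosen after the values were seen. It was in 4 of 8 amino acid response promoters (50%; AARS, ASNS, ATF3 and BCAT1), against 2.72% of the 1840, and ATF3 held it without being called. The stretches of 2 genes follow, again from 150 bases before to 50 after the start, with the CARE letters in capitals.
ASNS: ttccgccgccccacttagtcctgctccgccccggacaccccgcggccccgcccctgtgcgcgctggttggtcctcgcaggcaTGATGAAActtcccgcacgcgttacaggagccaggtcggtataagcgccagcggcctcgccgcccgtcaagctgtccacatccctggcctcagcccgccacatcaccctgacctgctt
BCAT1: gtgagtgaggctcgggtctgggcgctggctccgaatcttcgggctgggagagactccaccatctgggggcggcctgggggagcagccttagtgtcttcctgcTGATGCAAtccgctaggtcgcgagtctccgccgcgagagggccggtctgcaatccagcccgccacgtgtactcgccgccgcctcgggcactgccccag
They lie at chr7:97872359-97872558 for ASNS and chr12:24949052-24949251 for BCAT1 on GRCh38.p14, both on the minus strand, and the motif begins at -68 and -48.

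BCL2-family genes moved apart from each other. BH3-only genes encode the proteins that trigger mitochondrial apoptosis, and of 8 compared 2 were higher and 2 lower, with a median of 0.08. BMF (chromosome 15, 40380091 to 40401085, hg19, minus strand) was at a TPM of 128 in A375+VEM against 3.77 in A375+DMSO, 1.76 in A375P and 3.49 in A375R, 34-fold higher than A375+DMSO (28.8 to 40.4). BCL2L11, which encodes BIM, was at 13.6 in A375+VEM against 4.31 in A375+DMSO, 3.66 in A375P and 3.08 in A375R, 3.15-fold higher (2.70 to 3.69). In both genes only A375+VEM was high. BIK was lower at 3.09-fold (1.42 to 7.44) and BID at 1.58-fold (1.36 to 1.85), while BBC3, encoding PUMA, was at 31.8 and 29.1. Of 7 BCL2 anti-apoptotic genes, including the BAG co-chaperones, 3 were lower and 1 higher, with a median of -0.11. BCL2 was at 0.514 in A375+VEM against 3.57 in A375+DMSO, 8.88 in A375P and 4.35 in A375R, 6.95-fold lower than A375+DMSO (4.63 to 10.8). BCL2L1, encoding BCL-XL, was at 42.1 in A375+VEM against 105 in A375+DMSO, 151 in A375P and 144 in A375R, 2.50-fold lower (2.33 to 2.68). The member that was higher was BCL2A1, a MITF target, at 4.24 and 8.15, but A375P was at 7.67 and A375R at 37.5.

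Apoptosis effectors were mostly level, with a median of 0.36. Of 6, only the pore former BAX was called, at 138.8 in A375+DMSO and 209.7 in A375+VEM, and it was lower than the 282 of A375P, so that its direction turned with the control. Of 6 inhibitor of apoptosis genes, BIRC5 was lower and BIRC7, a melanoma-associated member at a TPM of 0.823 and 1.66, was higher with an interval that spans 1 (0.859 to 5.09). BIRC2, BIRC3, BIRC6 and API5 were within the threshold, and the list median was -0.26. Among 9 growth arrest genes, CABLES1, a cyclin-dependent kinase adaptor, was 4.01-fold higher (3.54 to 4.55) at 7.57 and 30.4, level with the 30.4 of A375P. AEN and BEX2 were lower, the list median was -0.26, and the anti-proliferative genes BTG1, BTG2 and BTG3 were within the threshold.

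**Figure D4:**
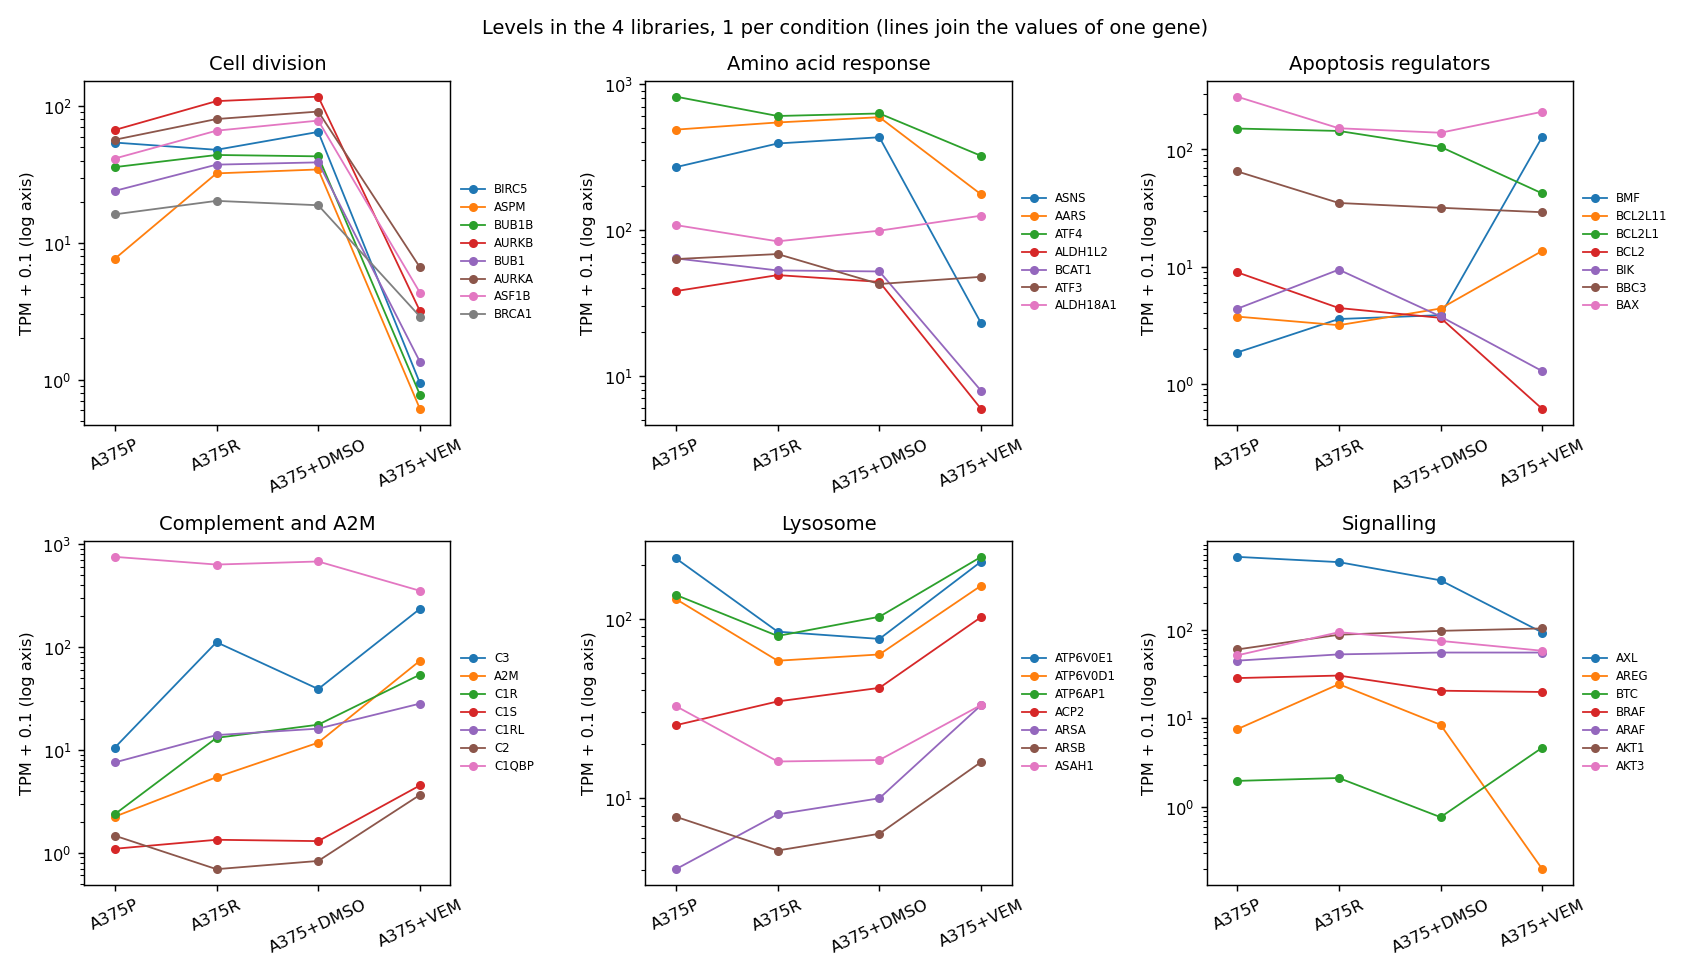
TPM + 0.1 (y axis, log scale) of selected genes in the 4 libraries (x axis), 1 library per condition; lines join the values of 1 gene and do not stand for a time course. Cell division genes and ASNS were low in A375+VEM, and ASPM was also lower in A375P than in A375+DMSO. BMF and A2M were highest in A375+VEM, and several lysosomal genes were as high in A375P as in A375+VEM.

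RAF and AKT kinase genes were level between the libraries. None of the 6 RAF and AKT genes was called, with a median of 0.05. BRAF, the drug's target, was at 19.7 in A375+VEM against 20.3 in A375+DMSO, 28.2 in A375P and 30.2 in A375R, and ARAF was at 54.9 in both A375+DMSO and A375+VEM. Of 6 receptor and related tyrosine kinases 2 were higher and 2 lower, with a median of -0.33. AXL, a receptor for GAS6 linked to invasive melanoma states, was at 92.4 in A375+VEM against 358 in A375+DMSO, 659 in A375P and 575 in A375R, 3.88-fold lower than A375+DMSO (3.74 to 4.02). AATK, a kinase of neurons, was 5.47-fold higher (4.51 to 6.68), at 2.89 and 15.8. ALK, at 0.659 and 2.31, was 3.51-fold higher. Of 4 EGFR ligands and neurotrophic factors 2 were higher and 1 lower, with a median of 0.91 that turned to -1.84 against A375P. The EGFR ligand AREG had 85 reads in A375+DMSO and 1 in A375+VEM, a ratio of 84.4 (14.7 to 3373). Another EGFR ligand, BTC, was 6.85-fold higher (3.96 to 12.7), at 0.666 and 4.56. AREG, BTC and ALK each reached a TPM of 1 only in the library in which they were high. The filter thus fixed their direction. The same holds for ANGPTL7, ACSBG1, BIRC5, BUB1B, ASPM, A4GALT, BLM, BRCA2, BARD1, BCL2, ABCG2 and ARSG, among other named genes. BDNF was at 2.59 and 2.12, against 21.8 in A375P.

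Complement genes were mostly higher. Only 8 of the 18 listed genes reached a TPM of 1, and of these 6 were higher and 1 lower, with a median of 1.71 (1.98 against A375P). The 6 higher genes stood above all other libraries. C3, the component on which the complement pathways converge, had a TPM of 236 in A375+VEM against 39.0 in A375+DMSO, 10.4 in A375P and 112 in A375R, 6.05-fold higher than A375+DMSO (5.74 to 6.38). C1R and C1S, proteases of the first component, were 3.08-fold (2.71 to 3.51) and 3.69-fold (2.39 to 5.88) higher. A2M, a protease inhibitor related to C3 rather than a complement component, is counted among the 6 higher genes. It was at 73.7 in A375+VEM against 11.7 in A375+DMSO, 2.14 in A375P and 5.32 in A375R, 6.32-fold higher (5.73 to 6.98). C3 and A2M were also above A375P in A375R and in A375+DMSO. C1QBP, a mitochondrial protein despite its name, was the member that was lower, at 682 and 354.

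Interferon-inducible and antigen presentation genes had a median of 0.04, with 5 of 20 higher and 2 lower (35% called, against 46.2% of all genes). AIM2, a sensor of cytosolic DNA, was 4.48-fold higher (3.43 to 5.93), at 5.65 and 25.3, and B2M, the light chain of MHC class I, 1.58-fold higher (1.54 to 1.63), at 1075 and 1704. APOBEC3B, a cytidine deaminase, was 12.6-fold lower (8.70 to 18.7), at 31.9 and 2.54. The related APOBEC3C was at 77.8 and 77.5. The only immune cell marker compared was AOAH, at 0.245 and 1.28.

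Lysosomal enzyme and proton pump genes were higher against A375+DMSO, and this depended on the control. Of 24 compared, 15 were higher and 2 lower, with a median of 0.70. Against A375P 6 were higher and 6 lower, with a median of -0.04. Their summed TPM was 2255 in A375+VEM against 1396 in A375+DMSO, 2356 in A375P and 1337 in A375R, so that A375P and A375+VEM were high and the other libraries low. The pump subunit gene ATP6V0E1 was at 208 in A375+VEM against 77.0 in A375+DMSO, 216 in A375P and 84.5 in A375R. Acid hydrolase genes were a partial exception. ARSA, arylsulfatase A, was at 32.9 in A375+VEM against 9.88 in A375+DMSO, 3.92 in A375P and 8.02 in A375R, 3.33-fold higher than A375+DMSO (2.94 to 3.76), and ACP2, lysosomal acid phosphatase, at 102 in A375+VEM against 41.0 in A375+DMSO, 25.4 in A375P and 34.5 in A375R, 2.48-fold higher (2.28 to 2.71). Both stood above all other libraries. ARSG, a sulfatase, was 8.52-fold lower (4.68 to 17). The CLEAR letters, TCACGTGA, bound by TFEB and MITF, were also chosen after the values were seen. They were in 2 of 17 of these promoters (11.8%; ATP6V0D1 and ATP6V1G1), against 1.74% of the 1840. ATP6V0D1 was higher, while ATP6V1G1 held the letters without being called. The repair gene APEX1, also not called, held them too. Among 19 autophagy genes 5 were higher, among them ATG14 at 2.34-fold (2.06 to 2.67) and ATG7 at 1.96-fold (1.81 to 2.11), and 3 lower, with a median of 0.32. The lower genes were ATG3, ATG12 and ATG101. In both directions together 42.1% of the autophagy genes were called, against 46.2% of all genes.

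Genes linked to MITF, the master regulator of pigment cells, were mixed. Of 13 compared, 6 were higher and 3 lower, with a median of 0.13. Their summed TPM was lower, at 652 in A375+VEM against 888 in A375+DMSO, 1276 in A375P and 829 in A375R. The pigment cell marker BEST1 was lower, at a log2 ratio of -0.62. ACP5, an acid phosphatase, was at 31.2 in A375+VEM against 19.8 in A375+DMSO, 10.7 in A375P and 14 in A375R, 1.57-fold higher (1.36 to 1.82). Scaled to a median ratio of 1, only 3 members were higher and ACP5 was not called. ASAH1, acid ceramidase, was 2.03-fold higher than A375+DMSO (1.8 to 2.30) but at 32.4 and 32.9 in A375P and A375+VEM. Of 18 genes of melanosome and lysosome-related organelle biogenesis, 2 were higher, 2 lower and 14 within the threshold, with a median of -0.01. ATP7A, the copper pump that supplies tyrosinase, was 2.31-fold higher (2.02 to 2.64), and AP3S1, an adaptor subunit, 2.48-fold lower (2.28 to 2.71).

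Fatty acid and acetyl-CoA genes were called in both directions, 13 of 36 higher and 8 lower (58.3%, against 46.2% of all genes), with a median of 0.34 (0.72 against A375P). The largest was ACSBG1, an acyl-CoA synthetase of brain and steroid-forming tissue, at 23.7 in A375+VEM against 0.462 in A375+DMSO, 0.0392 in A375P and 0.173 in A375R, 51.4-fold higher (28.5 to 104). The enzymes of β-oxidation differed by less. ACADVL, the dehydrogenase of very long chains, was at 747 in A375+VEM against 443 in A375+DMSO, 163 in A375P and 410 in A375R, 1.69-fold higher (1.64 to 1.73), and ACADS, that of short chains, was 2.04-fold higher (1.78 to 2.33). Lower genes included ACSL3, which activates long chains for lipid synthesis, at 2.26-fold (2.12 to 2.41), ACAT2 at 2.06-fold (1.77 to 2.39) and ACOX2, a peroxisomal oxidase, at 3.90-fold (2.79 to 5.57). By contrast none of 19 ATP synthase genes was called, with a median of -0.02, although ATP5B passed the threshold as lower when scaled to a median ratio of 1. The mitochondrially encoded ATP6 was the most abundant gene compared, at 9787 in A375+DMSO and 11213 in A375+VEM. ATP6 and ATP8 overlap, so their reads cannot be fully told apart. ATP5B, the catalytic β subunit, was at 1163 and 805.

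Secreted and matrix genes held some of the largest differences upward. ANGPTL7, a secreted angiopoietin-like protein (chromosome 1, 11249346 to 11256038, hg19, plus strand), had 1223 reads in A375+VEM against 5 in A375+DMSO, 5 in A375P and 0 in A375R, 246-fold above A375+DMSO (105 to 760). Of 8 angiopoietins and relatives 2 were higher and 2 lower, with a median of 0.28. ANGPTL4, a lipase inhibitor, was 4.46-fold higher (3.65 to 5.48), and ANGPT4 had 21.4-fold fewer reads (5.56 to 182). ADAMTS15, a protease that cuts proteoglycans, was at 67.5 in A375+VEM against 2.25 in A375+DMSO, 0.391 in A375P and 2.37 in A375R, 30.0-fold higher (24.6 to 36.9). The 17 ADAMTS proteases and relatives as a group did not lean one way, with 5 higher, 6 lower and a median of 0.02. ADAMTS12, for one, was 3.56-fold lower (3.19 to 3.97). Of 11 ADAM metalloproteinases 4 were higher and 2 lower, with a median of 0.38. ADAM10, the shedding protease, was at 121 in A375+VEM against 62.6 in A375+DMSO, 43.7 in A375P and 65.3 in A375R, 1.94-fold higher (1.85 to 2.04).

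Of 13 matrix proteoglycan and adhesion genes 6 were higher and 3 lower, with a median of 0.41. ALCAM, an adhesion molecule of melanoma cells, was at 122 in A375+VEM against 24.2 in A375+DMSO, 24.8 in A375P and 36.5 in A375R, 5.03-fold higher (4.74 to 5.36). BVES, a membrane protein of muscle cell contacts, was 10.7-fold higher (9.33 to 12.2), and ASTN1, astrotactin, a protein of neuronal migration, 2.05-fold higher (1.61 to 2.63). AMIGO2, a neuronal adhesion protein, was 5.09-fold lower (4.52 to 5.75). Of 8 BMP ligands and related genes, 4 were lower and 1 higher, with a median of -0.49. The higher member was BMP1, which is a procollagen protease and not a BMP ligand, at 3.28-fold (3 to 3.59). BMP4 was 3.33-fold lower (1.91 to 6.11). BMP and activin receptors and modulators were 2 of 8 higher and none lower, with a median of 0.42, and BAMBI, a decoy receptor, was at 44.0 and 99.2. Adhesion G protein-coupled receptors were 5 of 13 higher and 2 lower, with a median of 0.10. Of 5 fibroblast, muscle and endothelial markers 2 were higher and 1 lower, with a median of 0.50. AQP1, a water channel of endothelium, was at 1.8 and 5.32.

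Actin and Arp2/3 genes had 7 of 22 lower and 3 higher, with a median of -0.21. ACTG1 and ACTB, the cytoplasmic actins, were at 2646 and 2296 with DMSO and at 1534 and 1491 with vemurafenib, 1.73-fold (1.70 to 1.75) and 1.54-fold (1.51 to 1.57) lower. ACTN1, an actin cross-linker, was 3.20-fold lower (3.05 to 3.36). The opposite was seen for ADD3, an adducin of the membrane skeleton, at 286 in A375+VEM against 59.0 in A375+DMSO, 26.0 in A375P and 55.1 in A375R, 4.85-fold higher (4.64 to 5.07), while its paralog ADD2 was 4.02-fold lower (3.51 to 4.63). ARPC1B, an Arp2/3 subunit, was 2.15-fold higher (2.08 to 2.23). ACTC1, cardiac actin, had 0 reads in A375+DMSO and 24 in A375+VEM, at a TPM below 1. With 3 reads counted in A375+DMSO the ratio was 8.06, while the exact interval began lower, at 6.06-fold. The 12 housekeeping genes compared, which include ACTB, ACTG1 and B2M, had 2 higher and 3 lower and a median of -0.09.

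Hypoxia-inducible genes were mixed, with 2 of 12 higher and 4 lower and a median of -0.30. ADM, the vasodilator adrenomedullin, was at 5.07 in A375+VEM against 21.7 in A375+DMSO, 88.7 in A375P and 18.2 in A375R, 4.28-fold lower (3.25 to 5.71). Its relative ADM2, a gene of no list, was 22.3-fold lower (16.9 to 29.9). Apolipoproteins and ABCA or ABCG transporters were 7 of 16 higher and 3 lower, with a median of 0.34. ABCA7, a lipid transporter, was 4.09-fold higher (3.57 to 4.70) and ABCG2, a drug efflux pump, 7.94-fold lower (3.39 to 22.7). APOD, a lipocalin of quiescent cells, was at 11.8 in A375+VEM against 1.77 in A375+DMSO, 2.89 in A375P and 0.457 in A375R. Of 23 leucine zipper, bHLH and zinc finger factors 3 were higher, 4 lower and 16 within the threshold, with a median of 0.06. AHR, the aryl hydrocarbon receptor, was 2.47-fold higher (2.34 to 2.60), and its repressor AHRR was 2.10-fold higher (1.96 to 2.25). BCL6, a transcriptional repressor, was 3.02-fold higher (2.71 to 3.38), and BATF3 3.97-fold lower (2.08 to 8.22).

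Several of the largest differences in level lay outside the lists. ALDH1A3, a retinaldehyde dehydrogenase, was at 99.1 in A375+VEM against 689 in A375+DMSO, 815 in A375P and 1299.7 in A375R, 6.95-fold lower than A375+DMSO (6.68 to 7.23). ARHGEF2, a microtubule-bound guanine nucleotide exchange factor, was at 96.1 in A375+VEM against 519 in A375+DMSO, 593 in A375P and 476 in A375R, 5.40-fold lower (5.20 to 5.61). ANKRD1, a target of the Hippo pathway effectors YAP and TAZ, was at 1.85 in A375+VEM against 36.4 in A375+DMSO, 33.8 in A375P and 31.4 in A375R, 19.7-fold lower (13.5 to 29.6). All of these were low in A375+VEM alone. The annexins ANXA1 and ANXA2 went opposite ways, ANXA1 from 1268 to 416 and ANXA2 from 1011 to 2107. In ANXA1, A375P at 531 was nearer to A375+VEM than to A375+DMSO. ANK3, the ankyrin that anchors membrane proteins to spectrin, was 9.72-fold higher (9.18 to 10.3). ARHGEF37, a guanine nucleotide exchange factor, was 9.65-fold higher (8.55 to 10.9). C10orf10, also called DEPP, a FOXO target, was 9.01-fold higher (6.84 to 12.1) and had 1 read in A375P. C11orf91 was 7.93-fold higher (5.17 to 12.7). A4GALT, the synthase of globotriaosylceramide, was 14.6-fold lower (8.68 to 26.6), at 0.830 in A375+VEM against 12.1 in A375+DMSO, 1.69 in A375P and 20.7 in A375R.

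Of 71 long noncoding RNAs compared, 24 were higher (33.8%) and 13 lower (18.3%), against 25.6% and 20.01% of 1624 protein-coding genes. Over all genes compared 26.5% were higher. The order of lncRNAs and all genes turned when only intervals wholly past 1.5-fold were counted, with 11 lncRNAs higher (15.5%) against 17.7%. That share was not computed for protein-coding genes alone, and no test of the difference was made. Low-level genes were also called higher more often, 37.6% of those whose larger TPM was 1 to 5 against 20.3% of those at 100 or more. The part played by level in the lncRNA share was not tested. Pseudogenes had 21 of 47 higher (44.7%) and 9 lower, and reads of pseudogenes can belong to the parent gene. The lncRNA with the largest ratio upward among those with 20 reads was ADD3-AS1, with 32 reads in A375+VEM against 2 in A375+DMSO, 0 in A375P and 1 in A375R, a ratio of 16.1 (4.11 to 139). On the opposite strand it overlaps ADD3, which was higher too. ADORA2A-AS1, with 4 and 49 reads, overlaps ADORA2A, which was 4.83-fold higher (2.96 to 8.26). The strand setting of the counting was not given in the sources used here, so reads of ADD3-AS1 and ADORA2A-AS1 and of their partners cannot be fully told apart where they overlap. BVES-AS1, with 6 and 43 reads, lies beside BVES on the opposite strand without overlapping it. ABHD11-AS1 had 6 and 63 reads and BBOX1-AS1 4 and 28.

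Among lncRNAs that were lower, ALMS1-IT1, which lies inside ALMS1, had 2 reads in A375+VEM against 50 in A375+DMSO, 26 in A375P and 46 in A375R, a ratio of 24.8 (6.52 to 211). ALMS1, the host gene of the ciliary protein, was at a TPM of 8.53 and 4.02. C1QTNF3-AMACR and ARHGAP19-SLIT1 are read-through transcripts whose reads overlap AMACR and ARHGAP19, themselves 4.38-fold and 3.01-fold lower. AMACR, a peroxisomal racemase, was at 10.9 in A375+VEM against 47.7 in A375+DMSO, 9.22 in A375P and 75.3 in A375R, so that it and C1QTNF3-AMACR were slightly above A375P in A375+VEM. AFAP1-AS1 was 3.45-fold lower (2.76 to 4.34) and overlaps AFAP1, which was 2.88-fold lower (2.75 to 3.02). BCYRN1, a short neuronal RNA with 28 and 9 reads, was 3.09-fold lower (1.42 to 7.44). ABALON, which overlaps BCL2L1, was at 66.7 and 24.8, a difference of 2.69-fold (2.39 to 3.03) beside the 2.50-fold of BCL2L1. ALMS1-IT1, AFAP1-AS1 and ABALON thus overlapped genes that were lower too, and their reads cannot be fully told apart from those of these genes.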

How the data were processed

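RNA from 4 A375 libraries was analysed, 1 per condition, with groups taken from the labels. The authors deposited 1 table of read counts and TPM per gene and library, with gene type, length and position. The submitters' processing notes name HISAT2, TopHat2, Bowtie2, HISAT and hg19 without role or order, and the counter and its strand setting were not given in the sources used here. The table held the alphabetical start of the gene list, and 1 incomplete row was left out. Deposited counts were used only for exact intervals and TPM for ratios, with a pseudocount of 0.1, a minimum TPM of 1 in either library and a threshold of 1.5-fold. A fold change is the ratio of TPM, and a log2 ratio that of (TPM + 0.1), which understates low genes. Fold intervals came from 95% Clopper-Pearson (exact) bounds on the share of reads in either library. With 1 library per side there was no test and no p-value. No expression estimate was corrected for batch, and whether the libraries differed in batch was not tested.

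Genes were named by size: for coding genes at a TPM of at least 10, the 12 highest and 12 lowest ratios, for any gene the 8 greatest gains and 8 greatest losses in TPM itself, for lncRNAs at 20 reads or more the 5 highest and 5 lowest ratios, and genes with 0 reads in 1 library and at least 20 in the other. Members of 34 gene lists could also be named, and ALMS1, AMACR, ARHGAP19, ADORA2A and ABALON were named as neighbours of these after their values were seen. The comparison, lists and threshold were chosen with earlier results of these data known. Promoters came from RefSeq on GRCh38.p14 by gene identifier, the first listed per gene, and positions of genes are those of the deposited table. Scripts ran under Python 3.11.15 with scipy 1.17.1, numpy 2.4.6, matplotlib 3.10.9 and pandas 2.3.3, and were tested on simulated data. Alternatives tried were pseudocounts of 1 and 0.01, dropping the filter, a minimum TPM of 5, a 2-fold threshold, dividing by the median ratio so that it became 1, intervals wholly past 1.5-fold, A375P as the control and, for lncRNAs, calling by type or name.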

Additional observations from a re-analysis of the deposited data

Results flagged for a closer look

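Among 49 genes named for the size of their difference or level, 12 went one way after 48 h of vemurafenib and the opposite way in the resistant line set against its parent, each past 1.5-fold. The 49 were picked by their values in A375+VEM and A375+DMSO, and the share with opposite directions over all genes was not counted. Each direction rests on 1 library per side, the difference between the 2 contrasts was not tested, and all values are log2 ratios. Of these, 5 were cell division genes, which were lower in A375+VEM than in A375+DMSO and higher in A375R than in A375P. ASPM was at -5.82 in the first contrast and 2.08 in the second. AURKB was at -5.21 and 0.70, BUB1 at -4.85 and 0.64, ASF1B at -4.18 and 0.68, and ARHGAP11A at -3.79 and 0.82. In these 5 genes A375R lay near A375+DMSO and above A375P. A4GALT, a glycolipid synthase, was at -3.72 and 3.53, and ALDH1A3, a retinaldehyde dehydrogenase, at -2.80 and 0.67. APOD, a lipocalin, went the other way, at 2.67 and -2.42. Among lncRNAs, ALMS1-IT1 was at -3.91 and 0.93, C1QTNF3-AMACR at -2.09 and 3.02, and AFAP1-AS1 at -1.74 and 0.80, while ADORA2A-AS1 was at 2.86 and -1.48. In A375+DMSO against A375P, A4GALT was at 2.77, C1QTNF3-AMACR at 2.48, ALMS1-IT1 at 1.00 and AFAP1-AS1 at 0.93. In the same contrast APOD was at -0.68 and ADORA2A-AS1 at -2.39. Only ALDH1A3, at -0.24, went opposite to its direction in A375R against A375P.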

How the results depend on the processing

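Calls rested on 1 library per side, so counts moved with the threshold and the filter. With no filter on low values there were 746 genes higher and 536 lower in A375+VEM, with 42 and 30 lncRNAs, and with a TPM of at least 5 there were 9 and 8 lncRNAs. A 2-fold threshold gave 273 and 198 genes, 15 lncRNAs higher, 191 genes above and 133 below the other 3 libraries and 7 lysosomal genes higher. Counting only intervals wholly past 1.5-fold gave 315 and 234 genes, 11 and 7 lncRNAs, and 209 genes above and 150 below the other 3 libraries. Scaling to a median ratio of 1 removed a log2 shift of 0.11 and gave 406 higher and 400 lower, within 1.5 times of the counts as reported. It took ACP5, ANAPC2, APOE, B2M and BAX below the threshold, brought ATP5B, BIRC2, BTG3 and BUB3 past it as lower, and left 3 MITF-linked genes higher. With A375P as the control 6 lysosomal genes were higher, and the log2 ratio changed sign in 7 of the called genes named here: AMACR at 0.24, ASF1A at -0.0082, ATP6V0E1 at -0.059, BAX at -0.43, BEST1 at 0.24, C1QTNF3-AMACR at 0.39 and CABLES1 at -0.0041. No called single gene changed sign under the pseudocounts, filters or scaling. Beyond these 7, the ratio to A375P of 117 named genes fell outside the interval of the ratio to A375+DMSO. It stayed inside for 36. Of the counts higher or lower per gene list, 32 moved by more than 1.5 times or to or from 0, and 36 did not. Most named sizes thus depended on the control. The cause of the differences between the controls was not tested. No paired analysis was possible because each condition had 1 library. Low-level genes were limited by reads, as the wide intervals of AREG, ANGPT4 and ALMS1-IT1 show.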

Other observations

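Some gene families outside the lists also held members that differed between A375+VEM and A375+DMSO. These families were picked after their values were seen and are given as values. Over all genes compared 26.5% were higher and 19.7% lower. BTBD genes, which encode proteins with a BTB interaction domain, were higher in 6 of 11 and lower in none, with a median log2 ratio of 0.59. BTBD3, a regulator of dendrite orientation, was at a TPM of 158 in A375+VEM against 77.3 in A375+DMSO, 20.3 in A375P and 53.9 in A375R, 2.05-fold higher than A375+DMSO (1.96 to 2.14). BTBD16 had 5 reads in A375+DMSO and 64 in A375+VEM.

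Sodium and calcium pump genes went both ways. Of 9 ATP1 and ATP2 genes 5 were higher and 3 lower. ATP1B1, a β subunit of the sodium pump, was at 239.9 in A375+VEM against 76.5 in A375+DMSO, 43.4 in A375P and 72.1 in A375R, 3.14-fold higher (2.95 to 3.34). Its paralog ATP1B3 was at 161 and 90.2, 1.79-fold lower (1.67 to 1.91). ATP2B4, a calcium pump of the plasma membrane, was 2.33-fold higher (2.25 to 2.42) at 56.8 and 133. C1QTNF1 and C1QTNF6, secreted proteins with a C1q-like domain, were 5.10-fold (4.46 to 5.86) and 4.94-fold (3.99 to 6.16) higher. Of 14 aldehyde dehydrogenase genes 3 were higher and 3 lower, with ALDH1B1 2.21-fold lower (1.90 to 2.58) and ALDH4A1, a proline-degrading enzyme, 1.77-fold higher (1.57 to 1.99).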
